A study of Mus musculus with 10 samples.

Results

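The FGF signalling genes of adult cochlear hair cells comprised the fibroblast growth factors, their receptors and binding proteins, the FRS adaptors, and the inhibitors and transcription factors that are known as outputs of the pathway. They were taken by gene symbol (Fgf followed by a number, Fgfr1 to Fgfr4, Fgfrl1, Fgfbp genes, Spry1 to Spry4, Spred1 to Spred3, Etv1, Etv4, Etv5, Dusp6, Frs2 and Frs3), which gave 41 of the 48440 genes in the table. Gene expression was measured by RNA sequencing in inner hair cells (IHCs), which pass the sound signal to the auditory nerve, and outer hair cells (OHCs), which move with sound and so amplify it. Both came from untreated CBA/J mice aged 28 to 32 days by the labels, which give no engineered allele. The authors' methods give a somewhat higher upper age. There were 2 libraries of IHCs and 3 of OHCs. Each was made from about 1000 cells that were picked with a suction pipette and pooled over several mice. The authors give 2 technical repeats of each, which are called the lanes of a library here and were averaged. Whether these repeats were sequencing lanes or separate preparations is not described by the authors. Which mice gave which library is not stated in the sources used here, so the p-values reflect no more than how far these libraries lie apart, which may be technical.

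FGF ligands bind receptor tyrosine kinases at the cell surface, and the docking protein FRS2 couples the activated receptor to the RAS and ERK cascade. ERK acts through ETS transcription factors of the PEA3 group (Etv1, Etv4 and Etv5), and the sproutys, the SPREDs and the ERK phosphatase DUSP6 restrain the cascade in turn. In the developing mouse cochlea, FGF8 from IHCs acts on FGFR3 in the pillar cells beside them, FGF20 is needed for the outer compartment of the organ of Corti, and Sprouty2 limits the signal in supporting cells.

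By the depth inferred from the RPKM values, libraries held 20375240 and 22248104 reads in IHCs, and 19987044 to 23083994 reads in OHCs. The authors' methods give far more sequenced reads per sample, and the reason for the gap was not tested. Read counts and floors below rest on the inferred depth. The lanes of a library disagreed beyond counting error (exact binomial test, Benjamini-Hochberg) for 5.28% and 5.29% of genes in the IHC libraries and for 5.42% in OHC replicate 1, but for 1 gene and 0 genes in OHC replicates 2 and 3. Levels are in RPKM (reads per kilobase of exon, scaled to the mapped reads of the lane), and 3 reads in a library served as the floor of detection. The floor allows for counting error alone, since amplified reads that carry no molecular identifier do not each stand for a molecule. The markers of each cell type were high in the libraries that carry its name. The 5 IHC markers (Slc17a8, Nrgn, Tbx2, Calb2 and Slc7a14) summed to 5261 and 5341 RPKM in IHCs, against 288 to 299 RPKM in OHCs. Calb2, at a mean of 5120 RPKM in IHCs and 287 RPKM in OHCs, made up most of both sums. Each of the 5 was higher in IHCs by the test described below. Of the OHC markers, Slc26a5, the motor protein prestin, averaged 9.51 RPKM in IHCs and 549 RPKM in OHCs, and Ocm, the calcium buffer oncomodulin, averaged 385 RPKM in IHCs and 13010 RPKM in OHCs. Markers of each hair cell type were thus also read in the other, and their part in the low values below was not tested. Leukocyte markers summed to 7.05 and 7.12 RPKM in IHCs, against 93.7 to 96.7 RPKM in OHCs, and fibrocyte markers summed to 349.6 and 350.1 RPKM in IHCs, against 700.1 to 719 RPKM in OHCs. Erythrocyte markers summed to 343 and 356 RPKM in IHCs, against 1552 to 1666 RPKM in OHCs, and markers of the stria vascularis to 33.5 and 33.7 RPKM in IHCs, against 67.6 to 68.9 RPKM in OHCs. Markers of neurons and Schwann cells summed to 70.9 and 67.2 RPKM in IHCs, against 30.8 to 33.6 RPKM in OHCs. Most of them did not follow the sum. By the test described below 3 were higher in IHCs, 5 were higher in OHCs and 1 did not pass, with a median log2 difference (IHC minus OHC) of -0.87. The part of these cells in the differences below was not tested. In pooled cells of this kind, fewer cells of a type and less RNA per cell cannot be told apart.

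IHC and OHC libraries both held reads of a limited part of the FGF gene set, and they differed in which ligand, which receptor and which inhibitor was high. Of the 41 genes, 10 had no read in any library, and 5 more were detected but stayed under the limit for the test (at least 0.1 RPKM in at least 2 libraries). At least 1 RPKM in every library of the cell type was reached by 10 of the genes in IHCs and by 12 in OHCs. The 26 tested genes were compared with limma on log2(RPKM + 0.1), as IHC minus OHC, with Benjamini-Hochberg adjustment over all 16462 genes tested. By this test 8 were higher in IHCs and 9 were higher in OHCs, together 65.4% of those tested, where 68.8% of all genes passed (34.4% in each direction). By at least 2-fold, 6 of these were higher in IHCs and 9 in OHCs, where 27.1% of all genes passed at that size. The share of FGF genes that differed at any size was close to that of the transcriptome. Their differences were larger, with a median absolute log2 difference of 1.13, against 0.55 over all genes tested, and a median signed difference of -0.10, against -0.01. Of the 26 genes, 3 (Spred2, Spred3 and Spry4) reached 0.1 RPKM only in the cell type where they were higher and could enter the test in no other way. Among the 23 that reached it in both cell types, 6 were higher in IHCs and 8 were higher in OHCs, together 60.9%, where 66.5% of all such genes passed, and the median absolute log2 difference was 1.05, against 0.47 over all such genes. IHC and OHC libraries did not overlap for 19 of the 26, where this held for 79.2% of all genes.

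**Figure D1:**
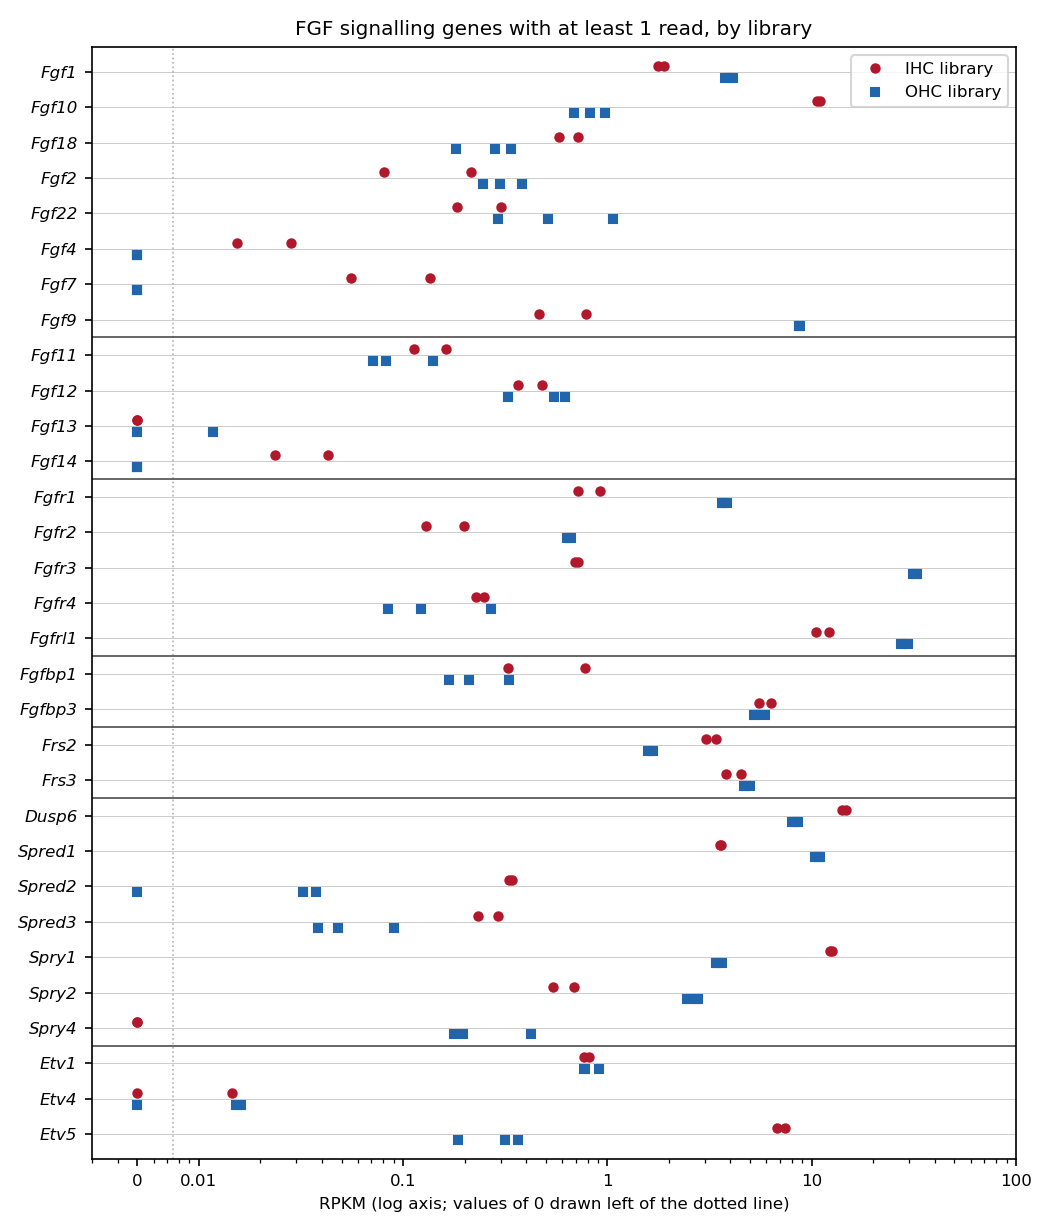
RPKM of the 31 FGF signalling genes with at least 1 read, on a log axis, with a circle for each of the 2 IHC libraries and a square for each of the 3 OHC libraries; lines separate ligands, homologous factors, receptors, binding proteins, adaptors, feedback inhibitors and PEA3 factors. Fgf10, Spry1, Dusp6 and Etv5 lay to the right in IHCs, and Fgf9, Fgfr3, Fgfrl1 and Spred1 in OHCs.

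**Figure D2:**
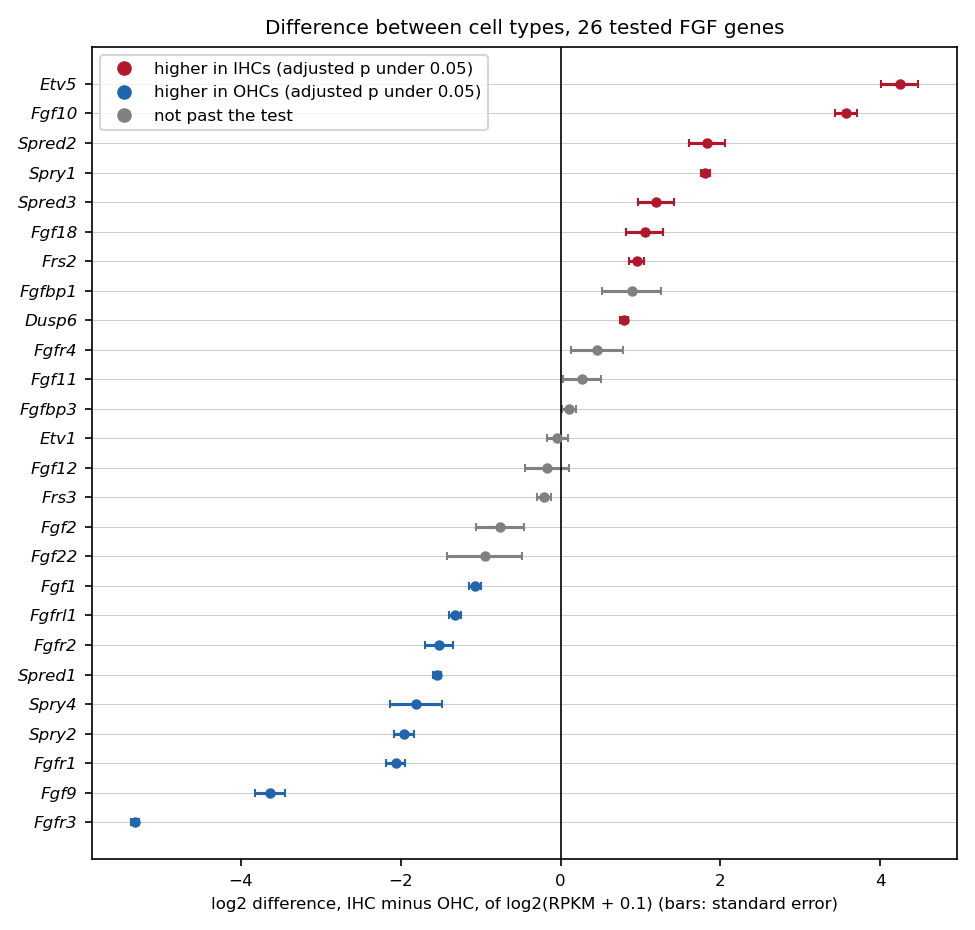
The log2 difference (IHC minus OHC, of RPKM + 0.1) with its standard error for the 26 tested genes, in order of size. The values run between 4.24 for Etv5 and -5.32 for Fgfr3, and the 9 genes in grey did not pass the test.

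The proximal promoters of 4 genes are shown, because Etv5 and Fgfr3 had the extreme differences in either direction and because Frs2 and Fgfrl1 carry a match to the motif bound by ETS factors. The sequences are the 250 bases before the transcription start in RefSeq on GRCm38.p6, written on the strand of the gene, and for Etv5 and Fgfr3 they belong to the more upstream of 2 starts. Etv5 lies on the minus strand (chr16:22439571-22439820), Fgfr3 on the plus strand (chr5:33721474-33721723), Frs2 on the minus strand (chr10:117148475-117148724) and Fgfrl1 on the plus strand (chr5:108693979-108694228). Capitals mark the motif CCGGAAGT.
Etv5: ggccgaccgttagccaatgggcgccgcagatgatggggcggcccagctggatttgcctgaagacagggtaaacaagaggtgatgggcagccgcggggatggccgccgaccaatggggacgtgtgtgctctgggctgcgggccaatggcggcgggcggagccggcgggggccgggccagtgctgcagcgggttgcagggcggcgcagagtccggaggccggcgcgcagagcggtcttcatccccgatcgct
Fgfr3: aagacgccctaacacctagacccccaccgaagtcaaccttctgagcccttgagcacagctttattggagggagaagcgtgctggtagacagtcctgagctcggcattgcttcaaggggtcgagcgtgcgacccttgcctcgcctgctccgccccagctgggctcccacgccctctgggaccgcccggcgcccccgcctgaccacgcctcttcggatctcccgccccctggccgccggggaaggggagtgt
Frs2: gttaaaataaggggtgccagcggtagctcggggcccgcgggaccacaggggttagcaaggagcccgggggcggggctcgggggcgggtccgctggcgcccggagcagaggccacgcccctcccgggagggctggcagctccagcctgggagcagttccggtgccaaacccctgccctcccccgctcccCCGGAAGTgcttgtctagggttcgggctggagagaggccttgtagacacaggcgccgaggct
Fgfrl1: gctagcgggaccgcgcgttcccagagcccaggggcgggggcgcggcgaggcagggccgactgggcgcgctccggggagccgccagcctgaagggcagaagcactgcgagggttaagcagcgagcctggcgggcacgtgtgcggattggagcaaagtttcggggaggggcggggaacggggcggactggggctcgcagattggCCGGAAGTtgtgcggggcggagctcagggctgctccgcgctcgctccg
All 4 windows were rich in G and C, with 71.2% in Etv5, 66.8% in Fgfr3, 71.6% in Frs2 and 73.6% in Fgfrl1, against a median of 52.4% over all promoters. CCGGAAGT, or its reverse complement ACTTCCGG, was found in 2.88% of 32851 promoter windows. A second ETS motif, AGGAAGT or ACTTCCT, was found in 7.69% of them, and no stretch of bases can match both motifs. Of 41 windows that belong to 32 of the FGF genes, 2 held the first motif and 1, of Spred2, held the second. That is 3 of 41, where 10.3% of all windows held either, so the windows of FGF genes did not stand apart in this count. The motif was present before Frs2, which was higher in IHCs, and before Fgfrl1, which was higher in OHCs.

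Among the 15 canonical ligands, those secreted to act on nearby cells, IHCs and OHCs each had 1 dominant transcript. Fgf10 (ENSMUSG00000021732, chromosome 13 of GRCm38 from 118669791 to 118792115) encodes a ligand of the FGFR2 isoform of epithelia and takes part in forming the inner ear of the mouse. It had 11.0 and 10.6 RPKM in the IHC libraries, against 0.819, 0.972 and 0.685 RPKM in the OHC libraries. The IHC values were close together and far above all OHC values, a 13.1-fold difference (log2 difference 3.57 ± 0.14 SE, adjusted p = 9.62e-06). Fgf9 (ENSMUSG00000021974, chromosome 14 from 58070547 to 58112720) encodes a ligand that binds FGFR3 among others. It had 0.463 and 0.782 RPKM in IHCs, against 8.66, 8.79 and 8.68 RPKM in OHCs. Fgf9 thus ran opposite to Fgf10, 13.99-fold higher in OHCs (log2 difference -3.64 ± 0.19 SE, adjusted p = 2.39e-05), and the reads behind it were 112 over the IHC libraries and 2381 over the OHC libraries.

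Fgf1 and Fgf18 differed to a lesser degree. Fgf1, which encodes acidic FGF, a ligand of all FGF receptors that lacks a signal peptide, had 1.76 and 1.89 RPKM in IHCs, against 3.77, 4.11 and 3.98 RPKM in OHCs. It was 2.17-fold higher in OHCs, with no overlap (log2 difference -1.07 ± 0.078 SE, adjusted p = 9.35e-05). Fgf18, a ligand of the FGF8 subfamily with a known role in cartilage and bone, had 0.720 and 0.579 RPKM in IHCs, against 0.182, 0.280 and 0.338 RPKM in OHCs. The groups did not overlap, but between 5 and 19 reads per library stood behind these values (log2 difference 1.05 ± 0.24 SE, adjusted p = 0.00943). Without IHC replicate 1 the call for Fgf18 was lost, at a log2 difference of 0.91 and an adjusted p of 0.0712.

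Fgf2 and Fgf22 did not pass the test. Fgf2, which encodes basic FGF, had 0.215 and 0.0805 RPKM in IHCs, against 0.245, 0.298 and 0.380 RPKM in OHCs (log2 difference -0.76 ± 0.30 SE, adjusted p = 0.064). It was the only 1 of 23 FGF genes with enough reads whose lanes disagreed beyond counting error, with 32 and 0 reads in the lanes of IHC replicate 1 and 32 and 6 reads in those of OHC replicate 1. Its exons overlap those of Nudt6 on the opposite strand over 640 bases, and reads of the 2 genes cannot be told apart there without strand. Nudt6 had 2.52 and 2.43 RPKM in IHCs, against 1.34, 1.22 and 1.26 RPKM in OHCs. The value for Fgf2 changed with the lanes and libraries used, with a log2 difference of -1.67 in the second lanes (adjusted p = 0.0289), -0.31 when the second lanes of the IHC libraries and OHC replicate 1 were left out (adjusted p = 0.436) and -1.16 without IHC replicate 1 (adjusted p = 0.0317). Fgf22, known for organizing presynaptic terminals in the mouse brain, rested on 2 and 3 reads in IHCs, against 12, 3 and 5 reads in OHCs. Its levels were 0.184 and 0.301 RPKM in IHCs, against 1.06, 0.291 and 0.514 RPKM in OHCs, which overlap (log2 difference -0.95 ± 0.47 SE, adjusted p = 0.12). Exons of the far more abundant Rnf126, at 12.5 to 14.8 RPKM in the 5 libraries, overlap those of Fgf22 over 82 bases, and the low counts of Fgf22 are uncertain for this reason. Its log2 difference was -1.32 without OHC replicate 2 (adjusted p = 0.036) and -2.16 in the second lanes (adjusted p = 0.0271), both past the test. It was -0.54 without OHC replicate 1 (adjusted p = 0.168) and -0.25 when the second lanes of the IHC libraries and OHC replicate 1 were left out (adjusted p = 0.675).

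The remaining canonical ligands were at or near the floor. Fgf7, a ligand of the FGFR2 isoform of epithelia, had 4 and 9 reads in IHCs (0.0554 and 0.136 RPKM), against no read in OHCs. Its mean in IHCs was 2.07 times the highest level that 3 reads gave in an OHC library. This fold leaves out the counting error of the few IHC reads, and Fgf7 did not enter the test. Fgf4 had 2 reads and 1 read in IHCs, and none in OHCs, so that no fold is given. Fgf3, Fgf5, Fgf6, Fgf8, Fgf16, Fgf17 and Fgf20 had no read in any library. For Fgf8 a count of 0 allows up to 0.0963 to 0.111 RPKM in a library, and for Fgf20 up to 0.0775 to 0.0895 RPKM. Fgf8 and Fgf20, which act from and around hair cells during development, were therefore not detectable at this depth in either adult cell type. The endocrine ligands Fgf15, Fgf21 and Fgf23, hormones of bile acid, fasting and phosphate metabolism, also had no read.

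Added up, the canonical ligands came to nearly the same RPKM in both cell types while their make-up was exchanged. The sum was 14.4 RPKM in each IHC library, against 14.8, 14.7 and 14.6 RPKM in the OHC libraries. Fgf10 made up 75% ± 1.8 of it in IHCs (SD, n = 2), against 5.62% ± 0.95 in OHCs (SD, n = 3). Fgf9 made up 4.32% ± 1.6 of it in IHCs, against 59.3% ± 0.49 in OHCs, and Fgf1 made up 12.7% ± 0.66 in IHCs, against 26.9% ± 1.2 in OHCs.

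**Figure D3:**
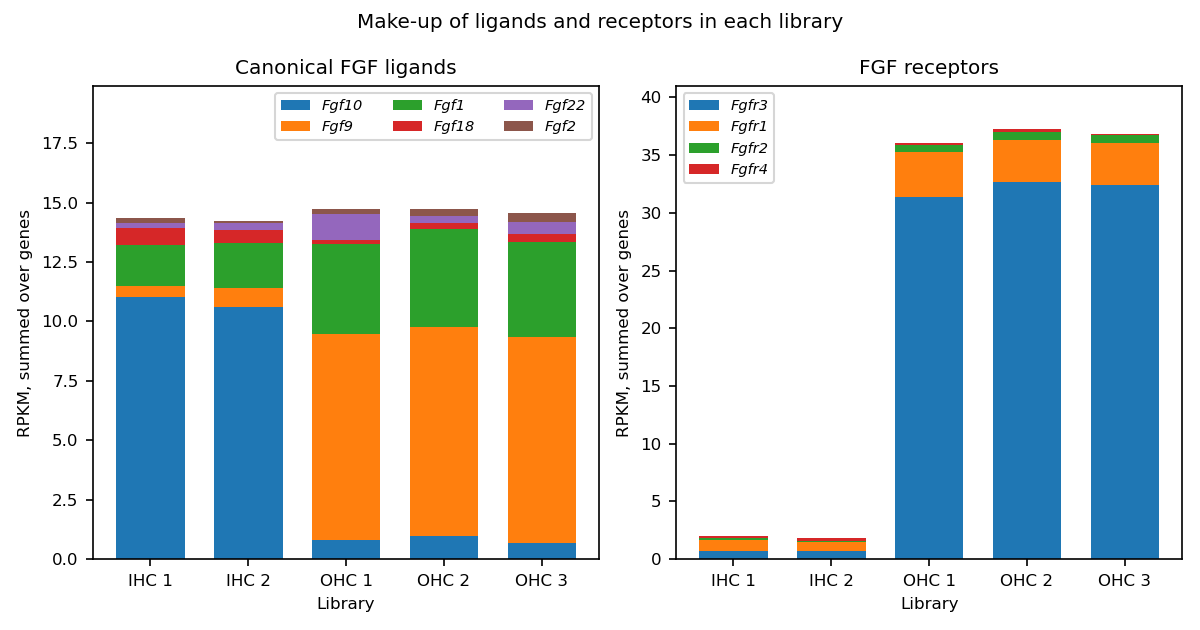
Stacked RPKM of the 6 tested canonical ligands (left) and of the receptors Fgfr1 to Fgfr4 (right) in each of the 5 libraries. The ligand bars are of like height and differ in composition, whereas the receptor bars reach 1.82 and 2.04 RPKM in IHCs and 36.0 to 37.3 RPKM in OHCs.

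FGF homologous factors are intracellular relatives of the ligands that bind voltage-gated sodium channels and do not act on FGF receptors. All 4 were low in the libraries of both cell types, and neither of the 2 that could be tested passed. Fgf12 had 0.367 and 0.480 RPKM in IHCs, against 0.551, 0.326 and 0.620 RPKM in OHCs (log2 difference -0.17 ± 0.27 SE, adjusted p = 0.605). Fgf11 had 0.162 and 0.113 RPKM in IHCs, against 0.0711, 0.141 and 0.0823 RPKM in OHCs (log2 difference 0.27 ± 0.24 SE, adjusted p = 0.35), and for both genes the cell types overlapped. Fgf14 had 4 and 2 reads in IHCs and none in OHCs, and Fgf13 had 1 read in all, in OHC replicate 2.

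Of the 5 receptor genes 4 were higher in OHCs, where 34.4% of all genes were, and they held the largest difference of the gene set. Fgfr3 (ENSMUSG00000054252, chromosome 5 from 33721674 to 33737068, plus strand) encodes the receptor that pillar and Deiters cells of the organ of Corti are known to use. It had 0.691 and 0.720 RPKM in IHCs, against 31.4, 32.7 and 32.4 RPKM in OHCs. The 45.6-fold difference was many times the spread within either cell type (log2 difference -5.32 ± 0.049 SE, adjusted p = 8.02e-08), and rested on 215 reads over the IHC libraries and 14742 reads over the OHC libraries. The exons of Fgfr3 overlap those of G630022F23Rik on the opposite strand over 998 bases, but that gene had no read in IHCs and at most 0.124 RPKM in an OHC library.

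Fgfr1, a receptor that many tissues express and that the auditory sensory epithelium needs during development, had 0.924 and 0.721 RPKM in IHCs, against 3.86, 3.63 and 3.66 RPKM in OHCs. It was 4.52-fold higher in OHCs (log2 difference -2.06 ± 0.12 SE, adjusted p = 3.79e-05). Fgfr2, whose epithelial isoform is the receptor for FGF10 and FGF7, had 0.199 and 0.129 RPKM in IHCs, against 0.634, 0.664 and 0.657 RPKM in OHCs, which was 3.98-fold higher in OHCs (log2 difference -1.52 ± 0.18 SE, adjusted p = 0.000592). Exons of Fgfr2 overlap those of the far more abundant Ctbp2 on the same strand over 314 bases. Ctbp2 had 9.70 and 9.48 RPKM in IHCs, against 9.96, 8.97 and 9.73 RPKM in OHCs. Fgfr2 rested on 32 and 19 reads in IHCs, against 106, 101 and 95 reads in OHCs. The part of Ctbp2 in these reads was not tested, and the low counts of Fgfr2 are uncertain for this reason. The table gives levels per gene, so the isoforms of Fgfr1 to Fgfr3 that differ in ligand choice were not resolved. Fgfr4 had 0.228 and 0.249 RPKM in IHCs, against 0.122, 0.269 and 0.0846 RPKM in OHCs, and did not pass (log2 difference 0.45 ± 0.33 SE, adjusted p = 0.257), although it did without OHC replicate 2, at a log2 difference of 0.74 (adjusted p = 0.0272), and was 0.24 without OHC replicate 3 (adjusted p = 0.511).

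Taken as a sum of Fgfr1 to Fgfr4, receptor transcripts came to 1.93 ± 0.16 RPKM in IHCs (SD, n = 2), against 36.7 ± 0.63 RPKM in OHCs (SD, n = 3). Fgfr3 made up 36.7% ± 4.1 of the sum in IHCs, against 87.7% ± 0.44 in OHCs, and Fgfr1 made up 42.4% ± 4.0 in IHCs, against 10.1% ± 0.52 in OHCs. No single receptor thus dominated in IHCs.

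Fgfrl1, an FGF receptor relative that binds ligand and lacks the tyrosine kinase domain, was the most abundant receptor-like transcript in IHCs. Its levels were 12.2 and 10.4 RPKM in IHCs, against 27.4, 29.7 and 27.7 RPKM in OHCs. It was 2.50-fold higher in OHCs (log2 difference -1.32 ± 0.075 SE, adjusted p = 3.54e-05). In IHCs the level of this kinase-free protein's transcript stood above the sum of the 4 kinase receptors, and in OHCs it stood below it.

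Fgfr3 is known from pillar and Deiters cells, so the 16 supporting cell markers were set beside it. Of these markers 8 were higher in IHCs, 6 were higher in OHCs and 2 did not pass, and their summed levels were 1691 RPKM in each IHC library, against 1566 to 1601 RPKM in OHCs. No marker of the list was without reads in OHCs, and Prox1, a defining transcription factor of pillar and Deiters cells, had none in IHCs, against 0.356, 0.244 and 0.215 RPKM in OHCs. Prox1 thus reached the limit for the test in OHCs alone. Tectb, which encodes beta-tectorin, averaged 0.878 RPKM in IHCs and 26.5 RPKM in OHCs, S100b averaged 26.1 RPKM in IHCs and 98.1 RPKM in OHCs, and Bace2 averaged 23.3 RPKM in IHCs and 173 RPKM in OHCs. In the other direction Slc1a3, the glutamate transporter of the cells around IHCs, averaged 131 RPKM in IHCs and 7.67 RPKM in OHCs, and Gjb2 averaged 405 RPKM in IHCs and 121 RPKM in OHCs. Markers of different supporting cells therefore moved in opposite directions, and their part in the differences of Fgfr3, Fgf9, Fgf10 and Etv5 was not tested.

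**Figure D4:**
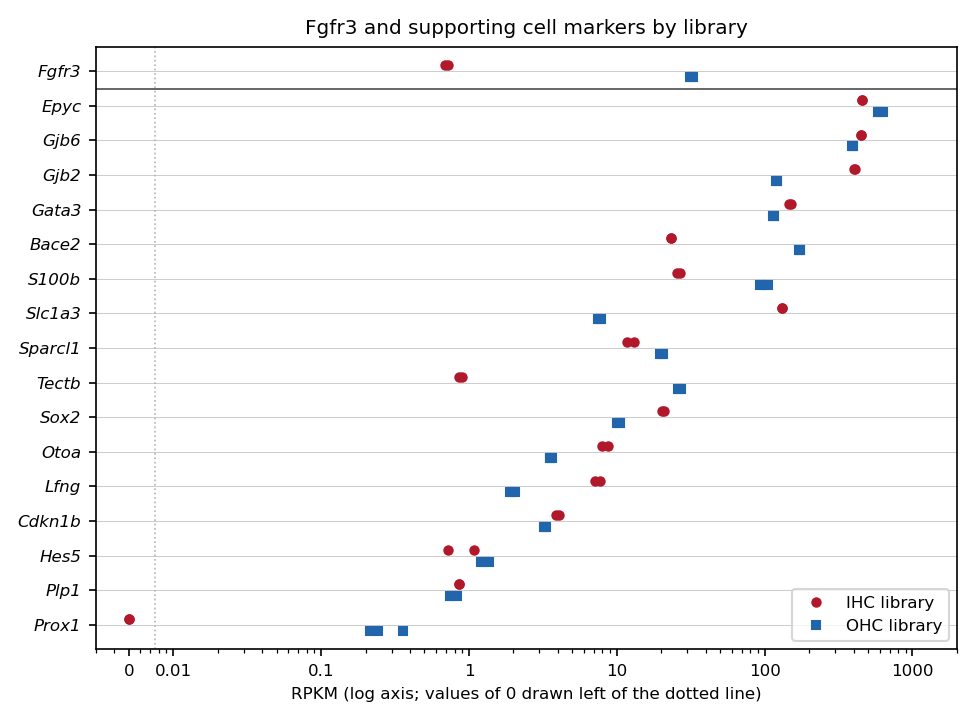
RPKM of Fgfr3 (top) and of the 16 supporting cell markers, on a log axis, with a circle for each IHC library and a square for each OHC library. Tectb, Bace2, S100b and Prox1 lay on the OHC side as Fgfr3 did, and Slc1a3, Gjb2, Lfng and Otoa on the IHC side.

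Neither FGF binding protein passed the test. Fgfbp3, which encodes a secreted carrier of FGFs, had 5.53 and 6.29 RPKM in IHCs, against 5.31, 5.91 and 5.20 RPKM in OHCs, with overlapping values (log2 difference 0.11 ± 0.087 SE, adjusted p = 0.309). Fgfbp1, which releases FGFs from the extracellular matrix, had 0.775 and 0.325 RPKM in IHCs, against 0.210, 0.168 and 0.331 RPKM in OHCs. The IHC libraries differed more than 2-fold from each other, and the difference did not pass (log2 difference 0.89 ± 0.37 SE, adjusted p = 0.077) but did without IHC replicate 2, at 1.41 (adjusted p = 0.023), whereas without IHC replicate 1 it was 0.37 (adjusted p = 0.43). Fgfbp1 also passed with quantile scaling (adjusted p = 0.0391), with all 10 lanes and duplicateCorrelation (adjusted p = 0.0255) and with the replicate block (adjusted p = 0.0399).

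Of the adaptors that tie FGF receptors to RAS, Frs2 had 3.05 and 3.39 RPKM in IHCs, against 1.68, 1.60 and 1.58 RPKM in OHCs. It was 1.99-fold higher in IHCs (log2 difference 0.95 ± 0.089 SE, adjusted p = 0.00026), the cell type with the lower receptor sum. Its relative Frs3 had 4.53 and 3.81 RPKM in IHCs, against 5.01, 4.79 and 4.66 RPKM in OHCs, and did not pass (log2 difference -0.21 ± 0.089 SE, adjusted p = 0.0822). The log2 difference of Frs3 was -0.33 without IHC replicate 1 and -0.09 without IHC replicate 2. Of its exonic sequence words 13.9% are shared with Frs3os, an overlapping gene on the other strand that reached at most 0.357 RPKM. Exons of Frs3 also overlap those of Tomm6os on the same strand over 69 bases. Tomm6os had 4.403 and 4.755 RPKM in IHCs, against 2.26, 3.49 and 3.20 RPKM in OHCs, and its part in the reads of Frs3 was not tested.

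Of the 7 feedback inhibitors, 4 reached the limit for the test in both cell types, and of these Spry1 and Dusp6 were higher in IHCs and Spry2 and Spred1 were higher in OHCs. Spred2, Spred3 and Spry4 reached it in 1 cell type only. With 68.8% of all genes past the test, such a count is no result about the inhibitors, and the sizes of the differences carry the description. Spry1, a sprouty that restrains signalling between receptor and ERK, had 12.4 and 12.6 RPKM in IHCs, against 3.39, 3.44 and 3.65 RPKM in OHCs. It was 3.58-fold higher in IHCs (log2 difference 1.81 ± 0.057 SE, adjusted p = 4.23e-06). Of its exonic sequence words 23.1% are shared with Gm42922, which overlaps it on the opposite strand and reached at most 0.152 RPKM in an IHC library. Spry2 ran the other way, with 0.539 and 0.683 RPKM in IHCs, against 2.70, 2.46 and 2.78 RPKM in OHCs. It was 4.34-fold higher in OHCs (log2 difference -1.96 ± 0.13 SE, adjusted p = 6.26e-05).

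Spry4 had no read in either IHC library, against 45, 17 and 18 reads in OHCs (0.425, 0.177 and 0.196 RPKM). The mean of Spry4 in OHCs was 8.29 times the highest level that 3 reads gave in an IHC library. It entered the test through the OHC libraries alone, so its call is not given as support. The 3 sproutys summed to 13.1 ± 0.30 RPKM in IHCs, against 6.41 ± 0.29 RPKM in OHCs. Spry1 made up 95.3% ± 0.67 of that in IHCs, against 54.5% ± 2.3 in OHCs, where Spry2 made up 41.3% ± 0.75.

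SPREDs are sprouty relatives that bring neurofibromin to RAS at the membrane, and Spred1 was the main one in both cell types. It had 3.57 and 3.62 RPKM in IHCs, against 10.3, 11.0 and 10.8 RPKM in OHCs, and was 2.98-fold higher in OHCs (log2 difference -1.55 ± 0.051 SE, adjusted p = 4.9e-06). Spred2 and Spred3 were low, with their higher values in IHCs. Spred2 had 34 and 32 reads in IHCs (0.331 and 0.340 RPKM), against 4, 0 and 3 reads in OHCs, a log2 difference of 1.83 ± 0.22 SE. Spred3 had 0.231 and 0.292 RPKM in IHCs, against 0.0906, 0.0384 and 0.0482 RPKM in OHCs, a log2 difference of 1.19 ± 0.23 SE. Both entered the test through the IHC libraries alone, so their calls are not given as support, and both fell under the limit for the test when either IHC library was left out. The number of FGF genes higher in IHCs was 8, against 5 without IHC replicate 1, where Fgf18 also lost its call, and 7 without IHC replicate 2, where Fgfbp1 newly passed.

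Dusp6, the phosphatase of ERK that is widely read as a marker of FGF and ERK activity, had 14.1 and 14.7 RPKM in IHCs, against 8.57, 7.998 and 8.30 RPKM in OHCs. The 1.74-fold difference exceeded the spread between libraries (log2 difference 0.79 ± 0.050 SE, adjusted p = 5.22e-05). Dusp6 was the most abundant FGF gene in IHCs, whereas Fgfr3 was in OHCs.

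Among the transcription factors of the PEA3 group, Etv5 (ENSMUSG00000013089, chromosome 16 from 22381309 to 22439719, minus strand) had 7.44 and 6.76 RPKM in IHCs, against 0.317, 0.186 and 0.366 RPKM in OHCs. All IHC values stood far above the OHC values (log2 difference 4.24 ± 0.23 SE, adjusted p = 2.84e-05), with 1244 reads over the IHC libraries and 76 over the OHC libraries. Of its exonic sequence words 30.3% also occur in Gm4798, for which no level was used here, and reads from such a copy could not be told apart. Etv1 did not differ detectably, with 0.817 and 0.767 RPKM in IHCs, against 0.765, 0.777 and 0.909 RPKM in OHCs (log2 difference -0.04 ± 0.13 SE, adjusted p = 0.818). Etv4 had at most 1 read per library. The 3 genes summed to 7.90 ± 0.53 RPKM in IHCs, against 1.12 ± 0.16 RPKM in OHCs, of which Etv5 made up 89.9% ± 0.096 in IHCs and 25.5% ± 5.7 in OHCs.

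The genes around the pathway were listed to see whether they divided in the same way. Of 22 tested genes of the RAS and ERK cascade (23 listed), 9 were higher in IHCs, 8 were higher in OHCs and 5 did not pass, with a median log2 difference of 0.12. For this list and those that follow, 34.4% of all genes tested were higher in IHCs and 34.4% were higher in OHCs, with a median of -0.01, and nothing particular to a list is read from its count. Most of these differences were small. Rps6ka2, a ribosomal S6 kinase that ERK activates, had the largest, with 138 ± 6.3 RPKM in IHCs and 2.57 ± 0.33 RPKM in OHCs, a 53.6-fold difference (log2 difference 5.70, adjusted p = 7.32e-07). The adaptor Grb2 was higher in IHCs, by a log2 difference of 0.61. Ptpn11, the phosphatase SHP2 that binds FRS2, and the scaffold Ksr1 were higher in OHCs, with log2 differences of -0.67 and -1.10. The number higher in OHCs was 4 without IHC replicate 1, 4 without IHC replicate 2, and 5 without OHC replicate 2 or OHC replicate 3.

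A list of further phosphatases and inhibitors, of which some act on other MAP kinases than ERK, gave 4 genes higher in IHCs, 6 higher in OHCs and 7 that did not pass, among 17 tested of 20 listed, with a median log2 difference of -0.17. Pebp1, an inhibitor of the cascade upstream of ERK, was the most abundant, with 711 ± 3.4 RPKM in IHCs and 420 ± 7.8 RPKM in OHCs. Il17rd, the FGF inhibitor also called Sef, was 6.998-fold higher in IHCs and the ERK phosphatase Dusp5 was 2.81-fold higher there. Il17rd reached the limit for the test in IHCs alone, so its call is not given as support. The phosphatases Dusp8 and Dusp10, which act on the stress kinases, and the RAS GTPase activating protein Rasal1 were higher in OHCs, by log2 differences of -2.37, -2.07 and -1.83. The number higher in IHCs was 2 without IHC replicate 1 and 2 without IHC replicate 2. Dusp2 and Dusp9 had no read.

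Of 15 other ETS factors tested (22 listed), 4 were higher in IHCs, 9 were higher in OHCs and 2 did not pass, with a median log2 difference of -0.52. Ets2, an ERK target, was 4.29-fold higher in IHCs, Elf3 was 2.27-fold higher and Elf5 was 5.58-fold higher. Etv6, the most abundant of the list, averaged 5.13 RPKM in IHCs and 7.23 RPKM in OHCs. The 3 OHC calls with the largest differences were Spib, Ets1 and Spi1, known as factors of blood cells, with 0, 0 and 0.0630 RPKM in IHCs, against 0.195, 0.143 and 0.274 RPKM in OHCs. Spib and Ets1 reached the limit for the test in OHCs alone and Elf5 in IHCs alone, so their calls are not given as support. Of 7 leukocyte markers tested, 5 were higher in OHCs, 1 (Csf1r) was higher in IHCs and 1 (Cd68) did not pass, and Cd3e had no read. Among these markers Ngp and Cd79a reached the limit in OHCs alone, and Csf1r in IHCs alone. The part of leukocytes in these values was not tested. Etv2, Fev and Elf4 had no read.

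Coreceptors and cell surface proteoglycans, which hold FGFs at the membrane and help them bind, had 2 of 13 tested genes (16 listed) higher in IHCs and 7 higher in OHCs, with a median log2 difference of -0.47. Gpc3, a glypican, was 9.62-fold higher in IHCs and Flrt2, a transmembrane protein of the family that binds FGF receptors, was 1.54-fold higher. The glypican Gpc6 and the syndecans Sdc1 and Sdc3 were higher in OHCs, by log2 differences of -2.66, -2.05 and -1.64. Gpc3 reached the limit for the test in IHCs alone and Gpc6 in OHCs alone, so their calls are not given as support. Nptn, the most abundant of the list, averaged 57.9 RPKM in IHCs and 56.6 RPKM in OHCs and did not pass (adjusted p = 0.392). Without IHC replicate 1 the count in IHCs was 1, and without IHC replicate 2 it was 0.

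Only 4 of 13 voltage-gated sodium channel subunits in the table, the partners of FGF homologous factors, could be tested. The alpha subunit Scn8a averaged 0.157 RPKM in IHCs and 0.512 RPKM in OHCs, Scn4b averaged 0.0331 RPKM in IHCs and 0.140 RPKM in OHCs, and Scn2b had no read in IHCs and averaged 0.122 RPKM in OHCs. These 3 passed as higher in OHCs. Scn4b and Scn2b reached the limit for the test in OHCs alone, so their calls are not given as support. The count in OHCs was 1 without IHC replicate 1 and 1 without IHC replicate 2. Scn3a and Scn3b had no read.

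**Figure D5:**
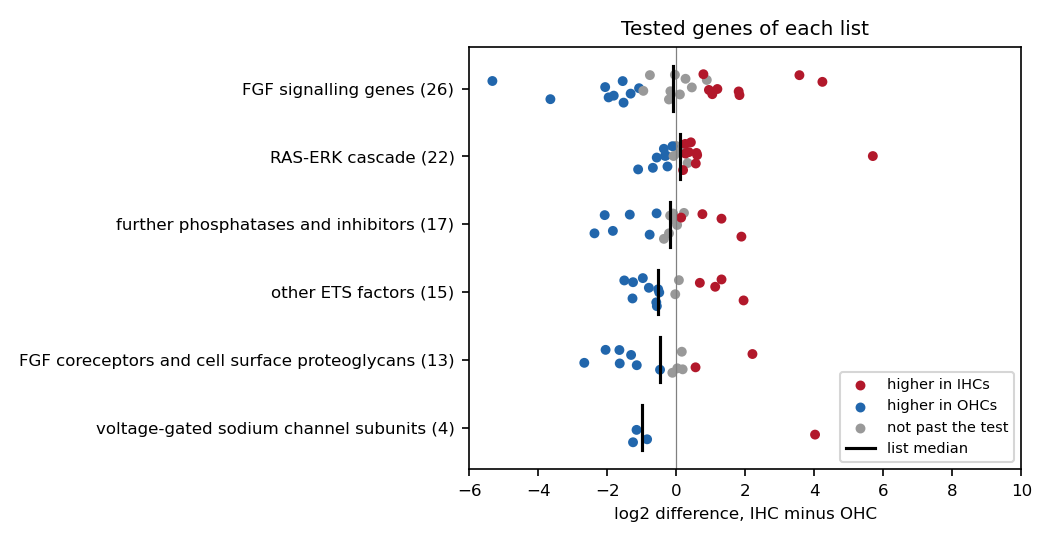
The log2 difference (IHC minus OHC) of each tested gene, in rows for the FGF signalling genes and the other lists, with the number tested in parentheses and a bar at the median of each list. FGF genes spread widely on both sides of a median of -0.10, whereas most RAS and ERK genes other than Rps6ka2 lay near 0.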

How the data were processed

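RNA was taken from about 1000 pooled cells per library, and reads were mapped to GRCm38 (mm10) by the authors. The RPKM values were made and deposited by the authors with CLC Genomics Workbench and HTSeq count, whose versions are not given in the sources used here. The 10 columns (5 libraries, 2 lanes each, with an inferred 9932733 to 11571938 reads per lane) were used as deposited, and the lanes of a library were averaged.

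Reads behind each value were recovered by multiplying RPKM by exon length (GENCODE M21) and lane depth. Lane depth was itself inferred from the values, as the most common inverse of RPKM times exon length, taken to stand for 1 read. With the annotated length, 69.5% to 70.3% of the values of a lane were whole within 0.01 reads, and for 5737 of 19961 detected genes, 12 of them FGF genes, the length was found from the values. IHCs and OHCs were compared in R 4.3.3 with limma 3.58.1 (variance trend, log2(RPKM + 0.1), two-sided, Benjamini-Hochberg threshold 0.05) over genes that reached 0.1 RPKM in 2 or more libraries. An exact permutation test of 1 gene cannot go under p = 0.1 here. The fit was also run on simulated data, whose outcome is not reported here and is not used as support. A fold is a ratio of mean RPKM, and log2 differences understate the change of low genes. Lanes were compared by an exact binomial test from 20 reads. Shared sequence was counted in words of 31 bases.

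The members and lists were chosen with earlier results of these data known. All FGF genes are named, and of each other list that is no marker list up to 3 genes with the largest differences in each direction and the most abundant gene. Some genes that this rule takes are not reported here. Further supporting cell markers are named where set beside a result. The alternatives were pseudocounts of 0.01 and 1, other filters, median-of-ratios and quantile scaling, the first lanes, the second lanes, all but the second lanes of the IHC libraries and OHC replicate 1, duplicateCorrelation, limma without trend or with a robust prior, a replicate block, voom on recovered reads, and leaving out each library.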

Additional observations from a re-analysis of the deposited data

How the results depend on the processing

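Of 478 values of the FGF genes over 19 alternative settings, 465 stayed on their side of the threshold, 12 newly passed and 1 no longer passed. The sign changed in 7 values, 6 of Etv1 and 1 of Fgf12, which did not pass in any setting, and in 0 values of the genes past the test. Of the 17 FGF genes past the test, 16 passed in every setting that tested them, Fgf18 being the exception. Among these 16 were Spred2, Spred3 and Spry4, which reached the limit for the test in 1 cell type only and whose calls are not given as support. Spred2 and Spred3 were not tested when either IHC library was left out, so they could not fail there. The count of FGF genes higher in IHCs was 8, and 5 where genes had to reach 1 RPKM in place of 0.1 RPKM, by construction over fewer genes. Leaving out each library in turn gave 5 to 9 higher in IHCs and 9 to 11 higher in OHCs.

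For the other lists the cause of the changes was not tested. RAS and ERK genes higher in OHCs numbered 8, against 4 in the first lanes, 3 with the replicate block and 4 to 7 when a library was left out. Leaving out a library gave 2 to 4 further phosphatases and inhibitors higher in IHCs, 0 to 2 coreceptors higher in IHCs and 1 to 3 sodium channel subunits higher in OHCs. A filter of at least 1 RPKM gave 4 other ETS factors and 0 sodium channel subunits higher in OHCs, and 1 coreceptor higher in IHCs. Without a filter, 2 sodium channel subunits were higher in IHCs and 5 in OHCs.

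Deviations from the group means correlated at 0.0125 for IHC 1 with OHC 1 and at -0.0197 for IHC 2 with OHC 2. With 2 IHC libraries the deviations of one mirror those of the other, so this check cannot decide whether samples were paired. By the authors' account both cell types were picked from each mouse, so libraries may share mice. The replicate block gave 9 FGF genes higher in IHCs and 9 higher in OHCs, with Fgfbp1 the added gene. Scaling moved the median of all genes to -0.028 at most. Genes under about 20 reads per library, among them Fgf18, Fgf22 and Spry4 in part, are limited by depth.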
